A study of Mus musculus with 12 samples.

Results

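Of 23764 genes in the table, 6 are described here as a group of acute-phase and antimicrobial proteins: serum amyloid A 3 (Saa3, ENSMUSG00000040026), the alpha-1-microglobulin/bikunin precursor (Ambp, ENSMUSG00000028356), secretory leukocyte peptidase inhibitor (Slpi, ENSMUSG00000017002), the lysozyme genes Lyz1 (ENSMUSG00000069515) and Lyz2 (ENSMUSG00000069516), and macrophage expressed gene 1 (Mpeg1, ENSMUSG00000046805). The genes were taken by symbol, and they were chosen by their normalized counts in treated and vehicle libraries, known from an earlier analysis of the same table. Differences between the arms are therefore given as a description without a test, and so are their changes over days in the vehicle libraries, which entered that choice. Adjusted p-values are given for genes of other lists only. Those lists too were chosen with earlier results of these data known, so their p-values are not independent evidence. The cells were RAW264.7, an immortalized mouse line of Balb/c origin and monocyte/macrophage type, a single line in every library. All groups received RANKL, the cytokine that turns such cells into osteoclasts. The vehicle groups received MEM-alpha medium, and the treatment groups received culture supernatant of Lactobacillus reuteri. RNA was taken at days 1, 3 and 5, with 2 libraries for each arm and day, 12 in all. No group without RANKL and no group with bacterial growth medium alone is among the samples. The labels do not say whether the 2 libraries of a group came from separate cultures, and the p-values below then reflect only how far those libraries lie apart, which can be a technical distance.

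Acute-phase proteins are made in large amounts during inflammation, chiefly by the liver, under the control of interleukin 6, interleukin 1, TNF and the transcription factors C/EBP, STAT3 and NF-kB. Saa3 is the serum amyloid A gene of the mouse that is made mainly outside the liver, by macrophages and fat among others, and serum amyloid A proteins act through receptors such as FPR2, TLR2 and CD36. Slpi encodes a secreted inhibitor of neutrophil serine proteases that also kills bacteria. Lysozyme cleaves the peptidoglycan of bacterial cell walls: in the mouse, Lyz2 is the macrophage gene and Lyz1 the gene of Paneth cells in the gut. Mpeg1 encodes perforin-2, a pore-forming protein of macrophage phagosomes, which is membrane-anchored and not secreted. Ambp encodes alpha-1-microglobulin, a heme scavenger, and bikunin, a protease inhibitor, in 1 precursor that is typical of the liver.

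The libraries held 8071160 to 16781080 reads on genes. Nuclear protein-coding genes took 85.2% to 87.6% of reads in 8 libraries and only 38.1% to 48.8% in 4, the second replicate of either arm at days 3 and 5. Mitochondrial genes took 25.7% to 30.6% in those 4 and 3.6% to 6.0% in the rest. The 4 are called low-mRNA libraries below. Replicates of day 1 differed by 3.94 and 4.93 times the variance expected from sampling, and those of days 3 and 5 by 495 to 708 times. The values below are normalized counts, which sum to between 12709475 and 12709487 in every library, so a nuclear gene in a low-mRNA library shares that total with far more mitochondrial and noncoding RNA. Values of a gene at days 3 and 5 are therefore given for each library, and fits are given with and without these 4. Over all 12 libraries, no gene of the 14715 tested passed an adjusted p of 0.05 in the limma fit in any comparison (percent called 0), and 19, 43 and 51 genes had an unadjusted p under 0.05 for treatment at days 1, 3 and 5. The fit on the 8 other libraries, called the 8-library fit below, called 5.74%, 0.116% and 5.81% of these genes for treatment at days 1, 3 and 5. With the filter on low values also taken on those 8 libraries, chosen after seeing the data, it tested 14371 genes and called 14.0%, 2.72% and 15.3%, and this version is called the refiltered fit. In both, each arm of days 3 and 5 has 1 library, assumed to vary like the libraries of day 1.

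Saa3 and Slpi were the members with the widest separation between the arms, and the 250 bases before their start sites each hold 1 match to the C/EBP motif TTGCNNAA, searched on both strands. The sequences are those of RefSeq on GRCm38.p6, 5′ to 3′ on the gene's strand, with the C/EBP match in capitals, at chr7:46715677-46715926 (minus strand) for Saa3 and chr2:164356508-164356757 (minus strand) for Slpi.
Saa3: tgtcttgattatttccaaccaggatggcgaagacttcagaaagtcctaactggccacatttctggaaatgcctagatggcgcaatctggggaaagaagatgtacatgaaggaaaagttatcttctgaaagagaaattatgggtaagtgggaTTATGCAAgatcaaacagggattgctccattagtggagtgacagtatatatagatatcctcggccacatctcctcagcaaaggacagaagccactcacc
Slpi: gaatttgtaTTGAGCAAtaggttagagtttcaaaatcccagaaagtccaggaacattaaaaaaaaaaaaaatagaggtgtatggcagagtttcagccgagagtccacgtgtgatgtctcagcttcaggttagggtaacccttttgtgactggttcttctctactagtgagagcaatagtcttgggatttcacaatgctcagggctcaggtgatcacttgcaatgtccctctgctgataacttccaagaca
The match lay 99 to 92 bases before the start of Saa3 and 241 to 234 bases before that of Slpi. Of 32851 windows of this length in the table, 9.6% hold such a match. Saa3 also holds an interferon element (GAAA, 2 bases of any kind, GAAA), 125 to 116 bases before its start, which 3.0% of windows hold. The NF-kB motif (GGGA, 4 bases of any kind, CC), in 17.6% of windows, was found in the window of Ambp only, and the AP-1 motif TGANTCA, in 6.7% of windows, in none of the 6. A match is a string of letters and not a shown binding site, and no binding was measured here.

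The windows of the lysozyme genes, at chr10:117292869-117293118 for Lyz1 and chr10:117282273-117282522 for Lyz2 (both minus strand), are shown because they carry the same PU.1 core AGGAAG, in capitals, at the same place. PU.1 (Spi1) is the transcription factor that defines macrophages.
Lyz1: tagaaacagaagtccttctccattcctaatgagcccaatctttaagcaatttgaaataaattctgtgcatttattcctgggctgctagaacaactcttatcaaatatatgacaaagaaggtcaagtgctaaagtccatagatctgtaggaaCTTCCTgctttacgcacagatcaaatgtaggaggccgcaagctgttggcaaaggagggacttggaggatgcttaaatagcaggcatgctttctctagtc
Lyz2: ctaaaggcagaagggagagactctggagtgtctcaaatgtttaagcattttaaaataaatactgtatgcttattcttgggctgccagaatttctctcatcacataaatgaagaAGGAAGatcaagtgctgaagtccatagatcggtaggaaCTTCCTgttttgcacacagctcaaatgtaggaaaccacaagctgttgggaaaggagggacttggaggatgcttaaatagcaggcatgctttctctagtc
In both genes a match lies 99 to 94 bases before the start, and Lyz2 holds a further one 137 to 132 bases before it. The window of Ambp also holds a match, and 29.5% of all windows do. Lyz1 has a C/EBP match 209 to 202 bases before its start. No match to any of these 5 motifs was found in the window of Mpeg1.

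Bases 31 to 300 of the coding sequences of Lyz1 and Lyz2 are shown because reads from one can fit the other. They come from GENCODE M21 (GRCm38), and capitals mark the bases at which the 2 differ.
Lyz1: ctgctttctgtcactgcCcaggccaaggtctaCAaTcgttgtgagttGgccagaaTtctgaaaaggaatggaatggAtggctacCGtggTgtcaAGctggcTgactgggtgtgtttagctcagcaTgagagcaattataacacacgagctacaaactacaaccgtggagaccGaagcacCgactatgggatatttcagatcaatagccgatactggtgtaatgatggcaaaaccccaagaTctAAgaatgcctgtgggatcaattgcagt
Lyz2: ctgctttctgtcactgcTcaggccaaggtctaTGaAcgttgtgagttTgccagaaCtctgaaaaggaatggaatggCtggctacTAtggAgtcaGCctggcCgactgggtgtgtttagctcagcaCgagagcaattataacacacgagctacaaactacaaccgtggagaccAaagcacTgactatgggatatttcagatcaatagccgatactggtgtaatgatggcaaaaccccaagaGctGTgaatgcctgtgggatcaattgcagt
Over the full 447 coding bases, 22 differ (95.1% identity), 19 of them in the stretch shown. The longest stretch without a difference has 118 bases, and 20.1% of windows of 50 bases are the same in both. How reads that fit both genes were counted is not given in the sources used here, so the sum of both genes is given beside each of them.

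Per kilobase of exon, the members spanned about 4 orders of magnitude in the 8 libraries that were not low in mRNA. The median level was 91190 normalized counts per kilobase for Lyz2 (36300 to 216300), 21770 for Lyz1 (14190 to 44640) and 3668 for Mpeg1 (2392 to 9763). The medians of Slpi at 83.7 (3.311 to 344.5), Saa3 at 4.161 (0 to 58.1) and Ambp at 3.205 (0 to 72.94) were far lower. The ranges of Lyz1 and Mpeg1 do not overlap. Those of Lyz2 and Lyz1 overlap, although Lyz2 was higher than Lyz1 in each of 12 libraries. The ranges of Slpi, Saa3 and Ambp overlap one another. Exon lengths are the union of all annotated exons, which lowers the value of a gene with alternative exons.

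Saa3 was close to absent under vehicle and detected in each treated library. At day 1 its normalized count was 6.8 and 2.7 in the vehicle libraries (9 and 3 reads) and 74.8 and 73.6 in the treated ones (87 and 86 reads). At day 3 both vehicle libraries held 0 reads, while the treated ones were at 14.9 and 47.2, the latter being the low-mRNA library. At day 5 the vehicle libraries were at 5.5 and 1.4 and the treated ones at 151.4 and 87.7. Every treated library lay above every vehicle library, on all 3 days and across days.

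Replicate by replicate, Saa3 was 11.0-fold (95% exact counting interval 5.52 to 24.8) and 27.3-fold (9.04 to 135) higher with supernatant at day 1. At day 3, against a floor of 3 reads in each vehicle library, it was at least 6.34-fold and at least 10.7-fold higher. The ratios at day 5 were 27.4-fold (12.3 to 75.8) and, resting on 1 vehicle read, 62.1-fold (10.8 to 2480). These intervals cover counting error only, and reads without molecular identifiers are not independent molecules. On the scale of log2(normalized count + 1), which understates the change of a gene with few reads, the 6 pairs gave differences of 3.28 to 5.59, where the median of all 14715 genes tested lay between -0.09 and 0.46. Replicate 1 alone, with no low-mRNA library, gave 3.28, 3.99 and 4.55 at days 1, 3 and 5. The gene was scarce throughout: its highest library had 165 reads, or 0.00119% of the total.

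**Figure D1:**
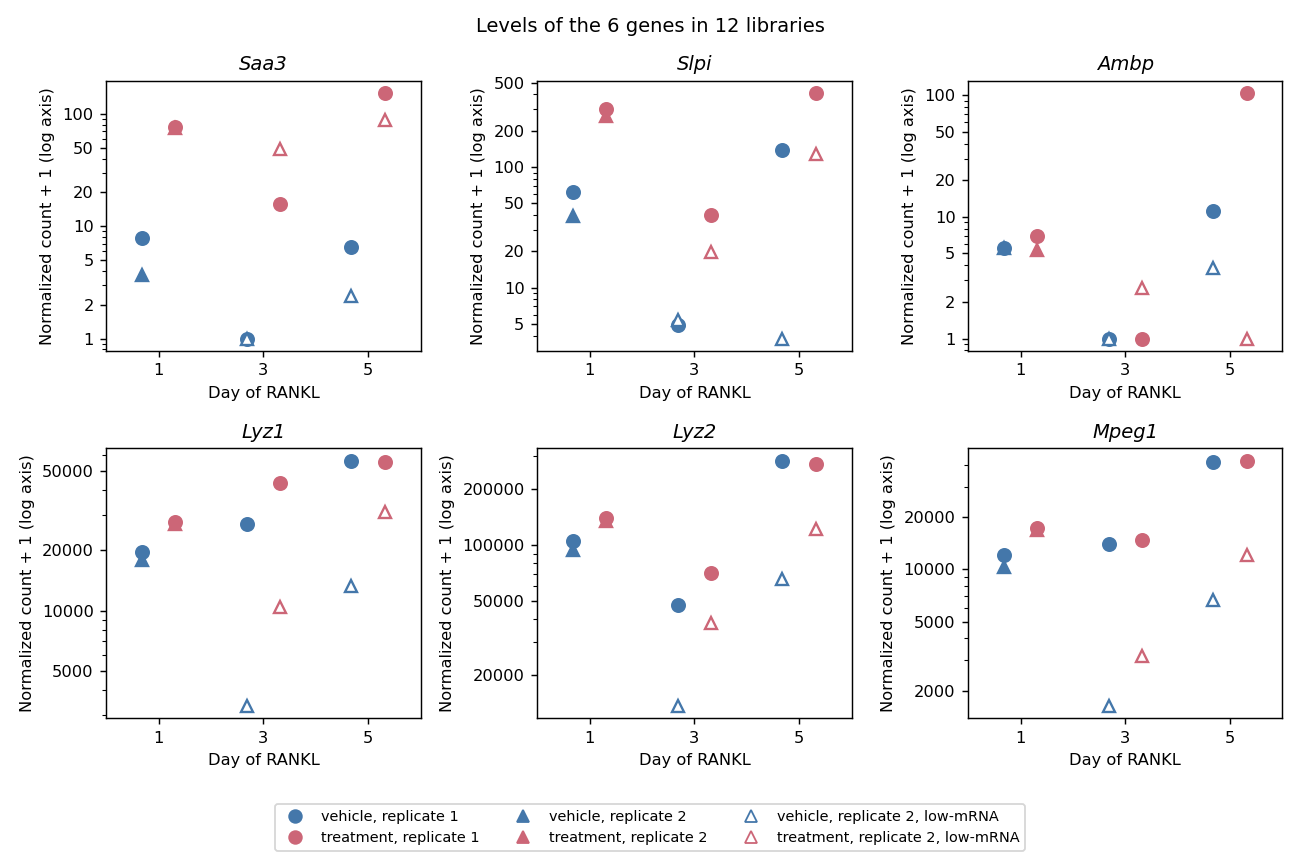
Normalized count plus 1 (log axis) of each gene against the day of RANKL, 1 point per library, blue for vehicle and red for treatment, circles for replicate 1, triangles for replicate 2 and open triangles for low-mRNA libraries. Saa3 lies higher in each treated library than in any vehicle library, whereas Lyz1, Lyz2 and Mpeg1 lie between 1634.4 and 284656.0 and follow the day and the kind of library.

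Ambp was detected at a level to interpret in 1 library only. It had 4.5 and 4.5 normalized counts under vehicle and 6.0 and 4.3 with supernatant at day 1, from 5 to 7 reads each. At day 3 it had 0 reads in 3 libraries and 1 read in the treated low-mRNA library. At day 5 the vehicle libraries were at 10.1 and 2.8, the treated replicate 1 at 102.8 (112 reads) and the treated replicate 2, a low-mRNA library, at 0. The treated and vehicle libraries thus overlap on each day, and the log2 differences of the day 5 pairs were 3.22 and -1.94. The mean of the treated group, 51.4 ± 72.7 (SD, n = 2), describes neither library, and Ambp enters the 14715 genes tested through that library alone.

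Of 24 other acute-phase genes on a list drawn up for this report, 14 are in the table and only 2, haptoglobin (Hp), which binds free hemoglobin, and ceruloplasmin (Cp), a copper-carrying ferroxidase, were abundant enough to test. Hp had 6.1 and 1.8 normalized counts under vehicle at day 1 and 25.8 and 16.3 with supernatant. It had 0 and 0 against 21.9 and 115.0 at day 3, and 15.6 and 0 against 71.6 and 244.1 at day 5. The treated libraries lay above the vehicle ones on each day, as for Saa3, but the call for Hp turned on the fit. It did not pass in the 8-library fit (adjusted p of 0.0715, 0.123 and 0.150 at days 1, 3 and 5) and passed on each day in the refiltered fit (0.00372, 0.000872 and 0.0400). Cp was at 39.4 and 47.6 against 63.6 and 71.0 at day 1 and at 189.6 and 52.3 against 207.4 and 128.0 at day 5, and it passed at day 1 in the refiltered fit only (log2 0.62, adjusted p = 0.0214). Lipocalin 2 (Lcn2), which captures bacterial siderophores, reached 16.5 normalized counts in treated replicate 1 of day 5 and at most 4.7 elsewhere. The treated low-mRNA library of day 5 was at 0. Lcn2 entered the refiltered fit through treated replicate 1 of day 5 alone, so its call there is not read as a result. Orm2, an orosomucoid gene, stayed at or below 4.7, and the classical liver genes Saa1, Saa2, Crp and Apcs were not among the genes tested.

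Slpi, the protease inhibitor, was higher with supernatant in each same-numbered pair. Its normalized count at day 1 was 61.3 and 38.6 under vehicle and 303.3 and 260.9 with supernatant. At day 3 it was 3.9 and 4.4 under vehicle (5 and 3 reads) and 39.1 and 18.9 with supernatant. At day 5 it was 136.2 and 2.8 under vehicle and 406.5 and 126.8 with supernatant. The arms do not overlap at days 1 and 3; at day 5 the treated low-mRNA library lay just under the vehicle library with normal mRNA content.

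The Slpi ratios were 4.94-fold (counting interval 3.87 to 6.38) and 6.76-fold (4.9 to 9.53) at day 1. They were 10.0-fold (4.02 to 32.2) and 4.29-fold (1.16 to 23.7) at day 3. At day 5 replicate 1 gave 2.98-fold (2.47 to 3.62) and the low-mRNA pair 44.9-fold (12.1 to 375), on 2 vehicle reads. The smallest ratio with ample reads was thus that of day 5 replicate 1, where the vehicle level itself was high. Across the 8 libraries with normal mRNA content Slpi spanned 104-fold, between vehicle and treated extremes at days 3 and 5.

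Of 13 genes that encode partners or targets of SLPI and bikunin, 10 are in the table and 5 were tested. The target proteases were close to absent: neutrophil elastase (Elane) had at most 1.4 normalized counts. Progranulin (Grn), which SLPI protects from cleavage, had 5322.0 and 4930.8 normalized counts under vehicle and 6341.9 and 5843.9 with supernatant at day 1. Annexin A2 (Anxa2), a membrane protein that binds SLPI, had 13687.9 and 12940.5 against 11260.7 and 11021.4. None of the 5 genes passed for treatment in the 8-library fit. In the refiltered fit Grn was higher with supernatant at days 1 and 5 (log2 0.25 and 0.29, adjusted p of 0.0138 and 0.0360) and Anxa2 fell by 0.26 at day 1 (adjusted p = 0.00748), while the scramblases Plscr1 and Plscr4 did not pass there either.

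Lyz2 was the most abundant member in each library and Lyz1 the next. At day 1 Lyz2 had 104639.0 and 94717.5 normalized counts under vehicle and 140361.6 and 135371.0 with supernatant. Lyz1 had 19646.9 and 17923.4 against 27700.6 and 27287.1. The arms do not overlap at day 1 for either gene, and the ratios of the pairs were 1.34-fold and 1.43-fold for Lyz2 and 1.41-fold and 1.52-fold for Lyz1.

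At day 3 the libraries of replicate 1 and replicate 2 lay far apart. Lyz2 was at 47777.0 and 13667.9 under vehicle and at 70584.3 and 38123.0 with supernatant. Lyz1 was at 27134.7 and 3327.7 against 43389.0 and 10410.2. Within each replicate number the treated library was higher, by log2 0.56 and 1.48 for Lyz2 and 0.68 and 1.65 for Lyz1, while the low-mRNA pair as a whole was shifted by 0.46.

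At day 5 the replicates with normal mRNA content did not separate the arms: Lyz2 was at 284656.0 under vehicle and 273447.8 with supernatant, and Lyz1 at 56386.3 and 55297.0. In the low-mRNA pair Lyz2 was at 65878.7 and 122798.1 and Lyz1 at 13214.7 and 31106.0, higher with supernatant by log2 0.90 and 1.23, where all genes were shifted by 0.23. The 2 pairs thus point in different directions, and the difference at day 5 rests on the low-mRNA libraries. Together the lysozyme genes took 0.134% to 2.68% of all reads.

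The share of Lyz1 in the reads of both genes differed between libraries more than between the arms. It was 15.8% and 15.9% under vehicle at day 1 and 16.5% and 16.8% with supernatant. In replicate 1 of day 3 it was 36.2% (95% Wilson interval 35.9 to 36.5) under vehicle and 38.1% (37.8 to 38.3) with supernatant. In replicate 2 of the same day it was 19.6% (18.9 to 20.3) and 21.4% (21.0 to 21.9). At day 5 it was 16.5% and 16.7% under vehicle and 16.8% and 20.2% with supernatant. The intervals cover counting error within a library only, not the spread between libraries. Replicate 1 of day 3 therefore stood apart in both arms, with Lyz1 above and Lyz2 below both libraries of the same arm at day 1. Whether the assignment of shared reads bears on this share was not tested. Read as a share of nuclear protein-coding reads, both genes together took 0.687% and 0.351% under vehicle and 1.05% and 0.811% with supernatant at day 3, so on that scale the treated libraries lay above the vehicle ones. At day 5 the values were 3.06% and 1.52% against 2.95% and 2.48%, and the arms overlapped.

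**Figure D2:**
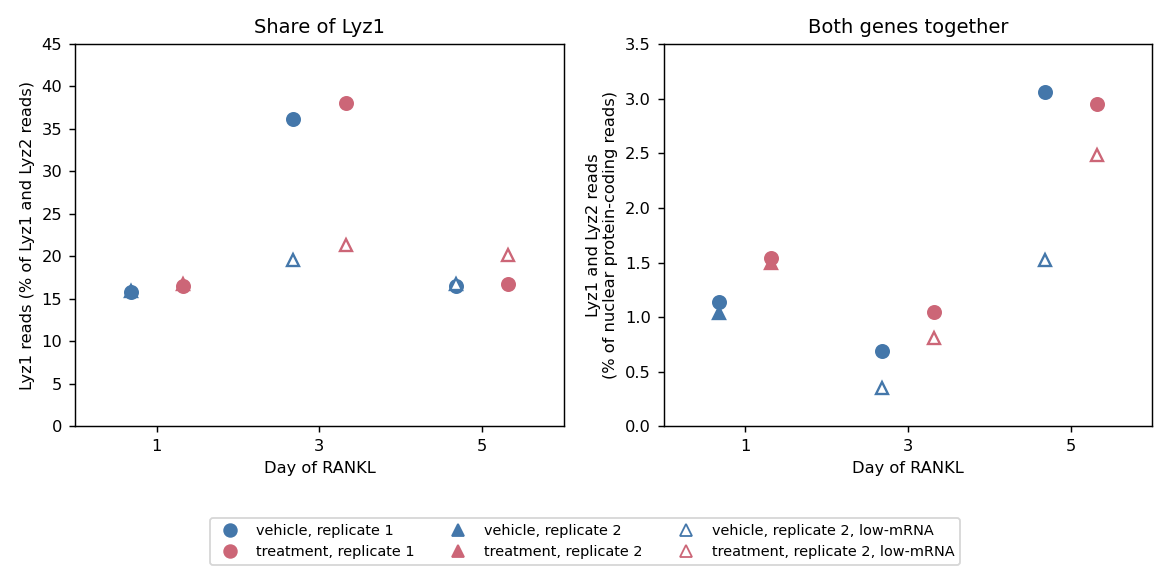
Left, Lyz1 reads as a percentage of Lyz1 and Lyz2 reads; right, reads of both genes as a percentage of reads on nuclear protein-coding genes; 1 point per library against the day of RANKL, with open triangles for low-mRNA libraries. The share is 36.2% and 38.1% in replicate 1 of day 3 and 15.8% to 21.4% in the other 10 libraries.

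Mpeg1, the perforin-2 gene, had 12052.0 and 10365.2 normalized counts under vehicle at day 1 and 17207.3 and 16960.3 with supernatant, ratios of 1.43-fold and 1.64-fold. At day 3 it was at 14006.9 and 1634.4 under vehicle and at 14829.8 and 3166.7 with supernatant. At day 5 it was at 41336.9 and 6658.9 against 42311.6 and 12064.1. In the replicates with normal mRNA content the arms thus differed by log2 0.08 at day 3 and 0.03 at day 5. In the low-mRNA pairs the differences were 0.95 and 0.86, where all genes were shifted by 0.46 and 0.23. On counts per nuclear protein-coding read these became 0.65 and 0.61.

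**Figure D3:**
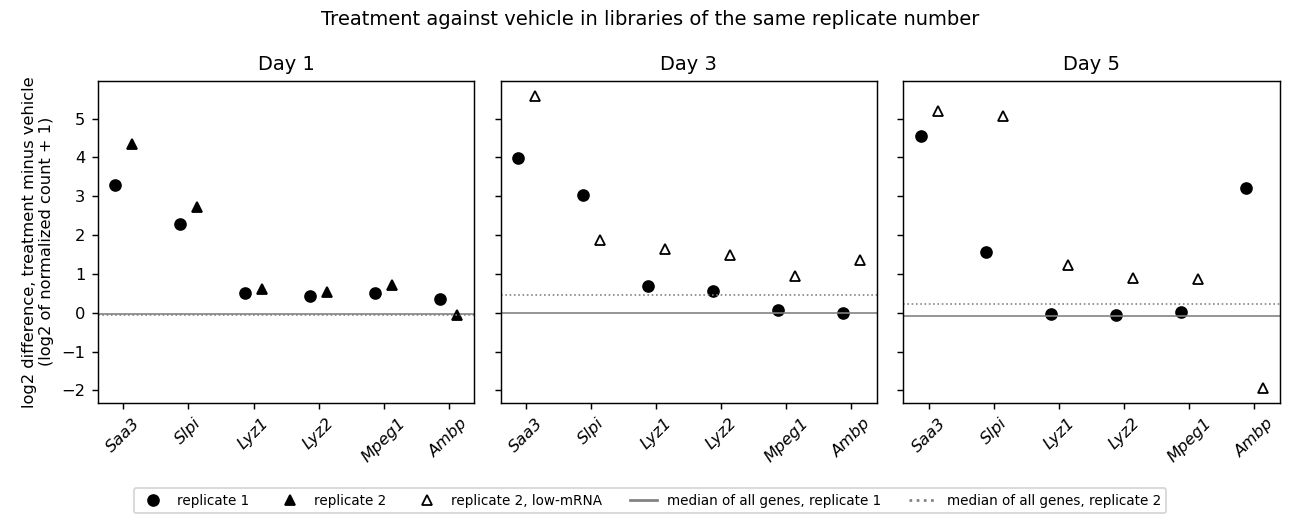
Difference in log2(normalized count + 1), treatment minus vehicle, for each gene in libraries of the same replicate number and day; open triangles are low-mRNA pairs and the grey lines are the medians of all genes in each pair. All pairs of Saa3 and Slpi lie above 1.5, and those of Lyz1, Lyz2 and Mpeg1 at days 3 and 5 lie higher in the low-mRNA pair than in replicate 1.

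Counted over the group, both treated libraries lay above both vehicle libraries for 5 of 6 members at day 1 (background 21.4% of all genes tested), for Saa3 and Slpi at day 3 (4.46%) and for Saa3 alone at day 5 (3.36%). These counts restate the contrasts from which the genes were picked, and nothing is read from them.

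The change over days of RANKL with vehicle, from vehicle day 1 to vehicle days 3 and 5, is described without a test, because the vehicle libraries were among those that chose the genes. Both vehicle libraries of day 3 lay below both of day 1 for 4 of 6 members, Saa3, Slpi, Lyz2 and Ambp (33.7% of all genes), and at day 5 this held for 0 members (36.7%). In the 8 libraries with normal mRNA content the log2 differences of vehicle day 3 from vehicle day 1 were -3.34 for Slpi, -1.06 for Lyz2, 0.53 for Lyz1 and 0.33 for Mpeg1, and the summed lysozyme reads differed by -0.66. Saa3 and Ambp had 0 reads in both vehicle libraries of day 3, against 3 to 9 and 5 to 6 reads at day 1, and they are among the genes tested only through treated groups. Over all 12 libraries, with the low-mRNA library of day 3 included, the differences of Lyz1 and Mpeg1 took the other sign, at -0.98 and -1.22.

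At day 5, in the same 8 libraries, the differences from vehicle day 1 were 1.89 for Mpeg1, 1.59 for Lyz1, 1.52 for Lyz2 and 1.46 for Slpi. They rest on 1 library of day 5. In the low-mRNA library of that day these 4 genes were below both vehicle libraries of day 1 in normalized counts. Scaled to nuclear protein-coding reads the order turned for 3 of them: Lyz1, Lyz2 and Mpeg1 were above both vehicle libraries of day 1, with both lysozyme genes together at 1.52% of such reads against 1.14% and 1.04%. Slpi stayed below on that scale too. The vehicle libraries of day 5 also differed from each other in osteoclast genes. Tartrate-resistant acid phosphatase (Acp5) was at 1230.6 normalized counts in the low-mRNA library and at 35.9 in replicate 1. For Acp5, replicate 1 lay nearer the vehicle libraries of day 1 (12.1 and 20.6) than those of day 3 (1068.1 and 674.7). Ctsk, another osteoclast marker, was at 6680.1 and 299.1, against 169.7 in each vehicle library of day 1 and 2085.5 and 580.6 at day 3. Other osteoclast markers differed from this. Mmp9 was at 2814.5 and 662.5, against 155.3 and 158.0 at day 1 and 1143.1 and 368.9 at day 3. Atp6v0d2 was at 2568.6 and 808.8, against 287.8 and 308.8 at day 1 and 4611.7 and 849.6 at day 3. The part of these genes in the differences was not tested. In these bulk samples, fewer cells of a type and less RNA per cell cannot be told apart.

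Among 19 genes for inducers of the acute phase, 13 were tested and 3 rose with supernatant at day 1 in the 8-library fit, with none falling, at a list median of 0.09 against -0.04 for all genes. Of all genes, 3.12% were called higher and 5.74% in either direction. Tnf, a cytokine that induces acute-phase genes, was at 443.8 and 400.4 normalized counts under vehicle and 643.6 and 633.1 with supernatant (log2 0.60, SE 0.0746, adjusted p = 0.0205). Nfkbiz, a nuclear partner of NF-kB, was at 86.3 and 88.0 against 136.6 and 137.7 (0.65, SE 0.108, adjusted p = 0.0392). Cebpb, the transcription factor C/EBP beta, was at 203.7 and 209.2 against 322.2 and 299.4 (0.59, SE 0.0835, adjusted p = 0.0280). For all 3 the treated libraries lay above the vehicle ones at day 1. None of the 13 passed over 12 libraries, nor in the 8-library fit when any 1 library of day 1 was also left out. No other gene tested passed for treatment at day 1 in those fits either, so this is not particular to the inducers. The refiltered fit called 9 of the 13 at day 1, beside 14.0% of all genes. Cebpd, Osm and Stat3 were higher there too, and Cebpa, Il6ra and Myd88 were lower.

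At day 3, 0 of 13 inducers passed in the 8-library fit (0.116% of all genes), with a median of 0.04 against -0.01, and Tnf and Cebpd passed in the refiltered fit (2.72%). Tnf was at 158.6 and 61.7 under vehicle and at 278.6 and 242.5 with supernatant. At day 5 Tnf rose, at 471.1 and 151.2 against 847.8 and 438.5 (log2 0.85 in the 8-library fit, adjusted p = 0.0233), and Cebpa, the transcription factor C/EBP alpha, fell, at 433.4 and 189.3 against 254.2 and 212.1 (fell by 0.77, adjusted p = 0.0320). The low-mRNA pair of Cebpa went the other way in normalized counts, where the median of all genes was also shifted up, by log2 0.23. Of all genes, 2.54% were called higher and 5.81% in either direction. The refiltered fit also called Osm and Stat3 higher and Il6ra and Rela lower at day 5, beside 15.3% of all genes. Interleukin 6 itself (Il6) had at most 0.9 normalized counts in any library and interleukin 1 beta (Il1b) at most 8.3. The abundant inducers Il6st and Nfkb1, which carry interleukin 6 and NF-kB signals, did not pass for treatment on any day in either fit.

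**Figure D4:**
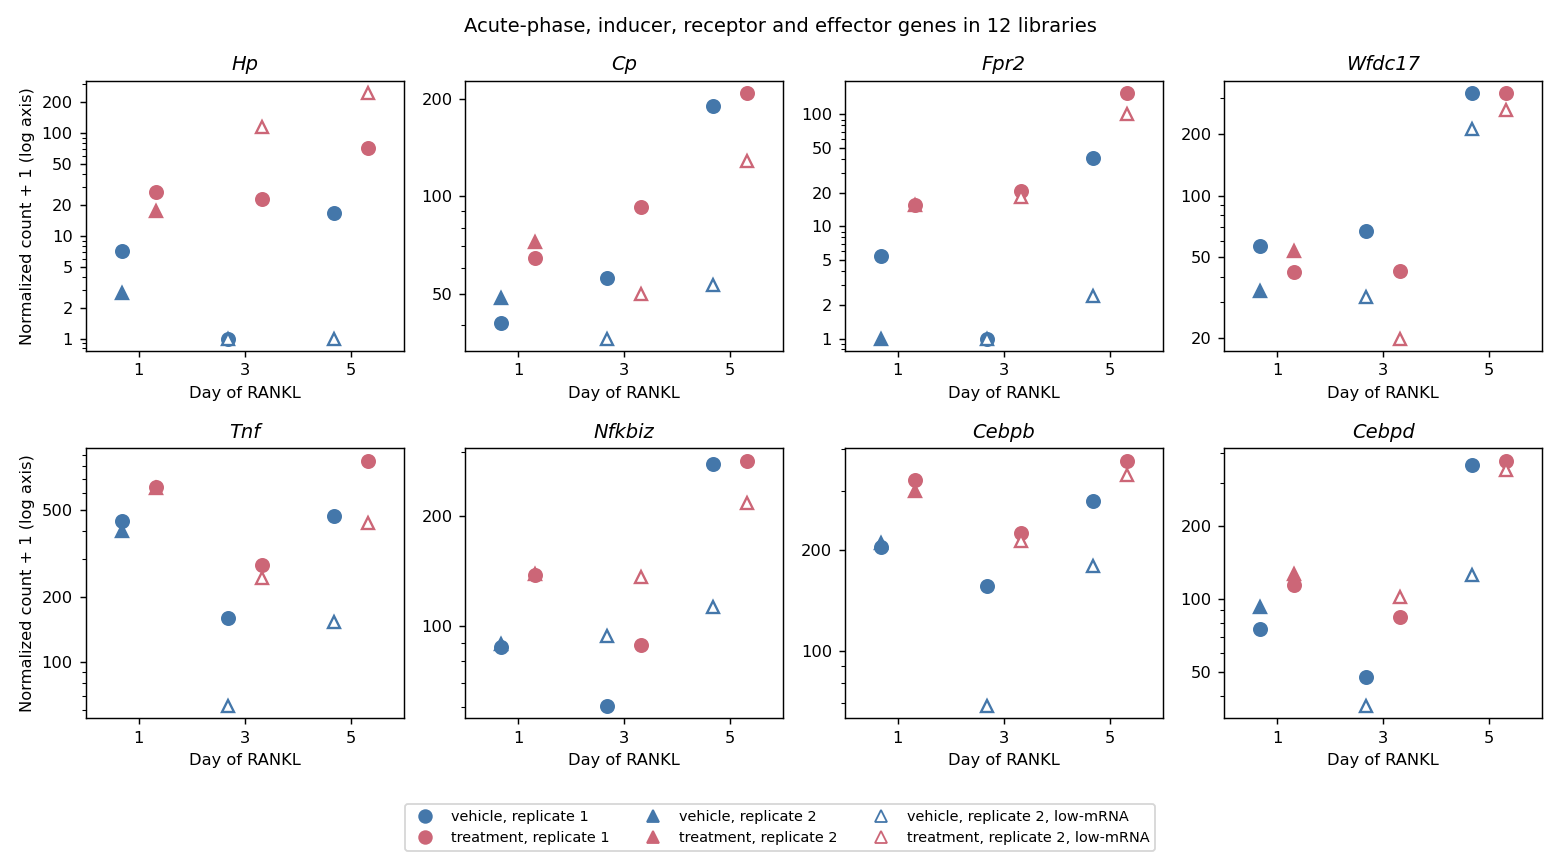
Normalized count plus 1 (log axis) of 8 genes of the lists against the day of RANKL, 1 point per library, with open triangles for low-mRNA libraries. Hp and Fpr2 lie higher in the treated libraries than in the vehicle libraries of the same day, and Tnf at day 1 is at 443.8 and 400.4 under vehicle and at 643.6 and 633.1 with supernatant.

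Of 9 receptors for serum amyloid A, 8 were tested. The formyl peptide receptor Fpr2, which serum amyloid A activates, had 4.5 and 0 normalized counts under vehicle at day 1 and 14.6 and 14.5 with supernatant. It had 0 and 0 against 19.6 and 17.3 at day 3 and 39.6 and 1.4 against 153.2 and 100.7 at day 5. The arms do not overlap on any day, but the call for Fpr2 turned on the fit: its adjusted p was 0.117, 0.258 and 0.346 at days 1, 3 and 5 in the 8-library fit, and 0.00582, 0.00809 and 0.142 in the refiltered one. The scavenger receptor Cd36 fell at day 5, from 20138.9 in vehicle replicate 1 to 13059.7 in treated replicate 1 (fell by 0.62, adjusted p = 0.0213), while the low-mRNA pair was at 1989.3 and 3896.5. It was the 1 call for treatment among the 8 receptors in the 8-library fit, where 5.81% of all genes were called at day 5. The refiltered fit also called Scarb2 lower at days 1 and 5. The Toll-like receptors Tlr2 and Tlr4 and the scavenger receptor Scarb1 did not pass for treatment on any day in either fit. The list median at days 1, 3 and 5 was -0.09, -0.05 and -0.16, against -0.04, -0.01 and -0.09 for all genes.

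Of 29 other antimicrobial effector genes, 15 are in the table, 6 were tested and 0 passed for treatment on any day in the 8-library fit, with medians of 0.04, -0.28 and -0.06. The metal transporter of the phagosome Slc11a1 was at 2188.0 and 2001.8 under vehicle and 2419.9 and 2244.0 with supernatant at day 1, and it was the 1 gene of the list that the refiltered fit called, at day 3 (log2 0.39, adjusted p = 0.0332). The pore former Gsdmd was at 1093.6 and 1114.0 against 1047.5 and 964.1. Wfdc17, which like Slpi has a WAP domain, was at 55.3 and 33.2 against 41.2 and 52.2, so it did not share the separation seen for Slpi. The ribonucleases Rnase4 and Ang have overlapping exons, and reads from the shared part cannot be told apart.

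Over days of RANKL in vehicle, the 8-library fit called 12 of the 34 tested list genes at day 3 (3 up, 9 down) and 20 at day 5 (17 up, 3 down). Of all genes it called 19.7% at day 3, with 9.69% up and 10.0% down, and 29.4% at day 5, with 14.4% up. At day 3 Tnf fell by 1.40, Cebpd by 0.80, Nfkbiz by 0.55 and Cebpb by 0.41, while Grn rose by 0.71, Gsdmd by 0.33 and Il6st by 0.32. Ang, Rnase4, Slc11a1, Anxa2 and Cd36 were the other falls. At day 5 Fpr2 rose by 4.11, Wfdc17 by 2.86, Cp by 2.11, Cebpd by 2.10 and Nfkbiz by 1.66, and Tlr2, P2rx7, Cebpa and Plscr4 rose by 0.56 to 1.42. Anxa2, Scarb1 and Cd36 fell at day 5. These changes rest on replicate 1 of vehicle days 3 and 5 alone. Fpr2 was at 39.6 normalized counts in replicate 1 of day 5 and at 1.4 in the low-mRNA library, against 4.5 and 0 at day 1. The median over the 34 genes was -0.09 at day 3 and 0.34 at day 5, against 0.04 and 0.00 for all genes. Over 12 libraries 0 of these genes passed at either day. There Grn, Gsdmd and Il6st took the other sign at day 3, at -0.28, -0.45 and -0.91. Tlr2 and P2rx7 did so at day 5, at -1.22 and -0.10, and the other genes named here kept their sign. With any 1 library of day 1 also left out, fewer of the 34 genes were called at either day. Calls over all genes tested fell in each of these fits too, so the drop is not particular to the lists.

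Markers of the labelled cell type were present in each library. All 10 macrophage markers were tested and summed to 10900 to 60130 normalized counts per library. All 10 osteoclast markers are in the table, 9 of them tested, and they summed to 3177 to 17660. Their lowest sums were in replicate 1 of day 5, at 3502 under vehicle and 3177 with supernatant. Those of day 1 were 3838 to 3893 and 3746 to 3994. The sums mix genes that moved in different directions. In vehicle replicate 1 of day 5, Mmp9, Atp6v0d2, Ctsk and Acp5 lay above both vehicle libraries of day 1, at 662.5, 808.8, 299.1 and 35.9. Dcstamp, Nfatc1 and Ocstamp lay below both, at 835.5, 799.6 and 54.3. Calcr, Itgb3 and Oscar had at most 5.5 there. Neutrophils are a known source of Slpi and lysozyme. Of 11 neutrophil markers 6 are in the table, with sums of 3.9 to 6.3 under vehicle and 8.6 to 10.4 with supernatant at day 1, 2.9 to 3.1 and 3.2 to 3.9 at day 3, and 3.7 to 5.6 and 14.2 to 22.0 at day 5. S100a8 made up most of these sums at day 5, and the defining genes Elane and Mpo had at most 1.6 in any library. The part of these markers in the Saa3 and Slpi differences was not tested. Hepatocyte markers, 4 of 10 in the table, summed to 3.1 to 46.0, with transferrin (Trf) as the largest part in each library. Its smallest part was in the low-mRNA library of vehicle day 3, with 2.9 of 5.9. Epithelial markers, 2 of 8 in the table, summed to 0 to 16.9 and fibroblast markers, 3 of 8, to 0 to 18.8. In treated replicate 1 of day 5, the library with Ambp, the hepatocyte sum was 32.1, all of it from Trf, against 46.0 in vehicle replicate 1.

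Likeness between genes was described by Pearson's r of log2(normalized count + 1) over the 12 libraries, which share depth and the split in mRNA content. Among the members, r was 0.827 for Saa3 and Slpi (0.907 over the 8 libraries), 0.956 for Lyz1 and Mpeg1 (0.885) and 0.928 for Lyz2 and Mpeg1 (0.836). For Lyz1 and Lyz2 it was 0.873 over 12 libraries and 0.575 over 8. The genes most like Saa3 were the prokineticin receptor Prokr1 (0.961), the neutrophil-attracting chemokine Cxcl2 (0.960) and Acod1 (0.933), which makes itaconate. Those most like Slpi were Mir7678 (0.987), which lies within the Slpi locus so that reads of the 2 cannot be told apart, the C-type lectin Clec4e (0.971) and the protein C receptor Procr (0.969). Zfp36l2 (0.976) and Pbx2 (0.974) were among the genes most like Lyz1, and Lyz2 was most like Bcl2l1 (0.989), Hdgfl3 (0.986) and Rhbdf2 (0.980). Mpeg1 was most like Ms4a6d (0.995), H2-Q4 (0.989) and Xdh (0.989), and all 3 kept an r of at least 0.960 over the 8 libraries. For Ambp, whose pattern is that of 1 library, the highest r was 0.891, with I830077J02Rik.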

How the data were processed

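RNA sequencing of RAW264.7 cells (TruSeq libraries from total RNA, per the labels' protocols) gave 12 libraries in 6 groups, grouped by title. The submitters' processing notes name build mm9 and the tools TopHat2, SAMtools and DESeq2; no version, annotation, strand setting or counting step is stated. In the deposited table each value is on a log2 scale, and its form shows it to be log2(normalized count + 8). With 8 taken off, 100% of positive values were whole multiples of 1 read within 0.02 reads, so reads were recovered. Each library then sums to between 12709475 and 12709487, so the authors' scaling acts as one to total reads on genes. Of 24757 rows, 993 repeats with equal values were dropped; rows were identified by Ensembl identifier and symbol. Reads from bases that overlapping genes share cannot be told apart.

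The 14715 genes whose group mean reached 10 normalized counts in at least 1 group entered limma 3.58.1 in R 4.3.3 (trended prior, 1 mean per group, log2(normalized count + 1), 6 residual degrees of freedom, Benjamini-Hochberg over all genes). The fit without low-mRNA libraries (under 60% of reads on nuclear protein-coding genes) keeps these genes and has 2 residual degrees of freedom. The members and gene lists were chosen with earlier results of these data known. Named list genes are the 4 highest by mean in each list and up to 4 with the largest change among those past the threshold. Others were named after their values were seen: Il1b, Il6, Lcn2, Elane, Acp5 and the other osteoclast markers. So were the genes with few reads and those called only with the filter on 8 libraries. One gene that the likeness rule names is not reported here. Counting intervals are exact (95%), shares have Wilson intervals, and the floor is 3 reads per library. RefSeq windows and GENCODE M21 served for sequences, lengths and names. The fits were also run on simulated counts with the gene means of day 1 and 1 small spread for all libraries. That simulation had no low-mRNA libraries, so it does not show how the fits behave at days 3 and 5. Alternatives were leaving out each library, a replicate block, other pseudocounts (0.5, 5), no filter, quantile normalization, limma-voom on recovered reads and, added after seeing the data, scaling to nuclear protein-coding reads, a filter on the 8 libraries, and leaving out a library of day 1 from them. Python 3.11.15, pandas 2.3.3, scipy 1.17.1 and matplotlib 3.10.9 were used.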

Additional observations from a re-analysis of the deposited data

How the results depend on the processing

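Over 12 libraries 0 members and 0 list genes passed in any comparison, and the same held with each library left out (0 to 0), no filter, pseudocounts of 0.5 and 5, quantile normalization, limma-voom and scaling to nuclear protein-coding reads. The replicate number pairs no samples by the labels. Deviations of same-numbered libraries correlated at 0.070 between the arms at day 1, 0.899 at day 3 and 0.897 at day 5, and at 0.066 and 0.054 between vehicle days, with 2 pairs each. A replicate block called 0 genes of the whole table in each comparison. A replicate block by day called 22 and 14 list genes at vehicle days 3 and 5, with the lysozyme sum at vehicle day 3 at -1.73. Over the whole table this block by day called 0, 4, 17, 9366 and 7562 genes in the 5 comparisons. Calls of members restate the choice of the genes, so nothing is read from them. They are given only for settings without the low-mRNA libraries. In the 8-library fit, 844 of 14715 genes in all were called for treatment at day 1 (5.74%). At vehicle days 3 and 5, with 1 library each, that fit called larger shares of all genes, as given above. The counts of members there are therefore not a feature of the members alone. Without the low-mRNA libraries, members called were 4, 0 and 2 for treatment and 5 and 4 for vehicle days 3 and 5, and list genes 3, 0, 3, 12 and 20. With the filter also taken on the 8 libraries they were 5, 4, 3, 6 and 4 members and 15, 5, 11, 17 and 22 list genes, out of 2012, 391, 2203, 4082 and 5371 genes in all. With a library of day 1 also left out, fewer members and list genes were called for vehicle at days 3 and 5. Fewer of all genes tested were called in these fits too.

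Without the low-mRNA libraries, and with either filter, vehicle day 3 reversed for Lyz1 (-0.98 to 0.53) and Mpeg1 (-1.22 to 0.33), and vehicle day 5 for Saa3 (-0.44 to 0.28) and Slpi (-1.12 to 1.46); the lysozyme sum went to -0.66 and 1.53. With a library of day 1 also left out these spanned 0.47 to 0.60, 0.22 to 0.43, -0.26 to 0.82 and 1.14 to 1.79, where Saa3 was at -0.26 without vehicle replicate 2 of day 1 and thus kept the sign it has over 12 libraries. Leaving out vehicle day 3 replicate 2 alone gave 0.53 and 0.33, vehicle day 5 replicate 2 gave 0.28 and 1.46, and vehicle day 1 replicate 1 gave 0.10 for Saa3. Over all fits that leave out a library, Lyz1 and Mpeg1 at vehicle day 3 ranged from -2.50 to 0.60 and from -2.77 to 0.43, and at vehicle day 5 Saa3 from -1.16 to 0.82, Slpi from -3.70 to 1.79, Lyz1 from -0.51 to 1.65, Lyz2 from -0.60 to 1.59, Mpeg1 from -0.75 to 2.00 and Ambp from -0.53 to 1.02. Without vehicle day 5 replicate 1, Lyz1 (-0.51), Lyz2 (-0.60), Mpeg1 (-0.75), Ambp (-0.53) and the lysozyme sum (-0.58) reversed. Quantile normalization took the Lyz2 difference at treatment day 1 from 0.47 to 0, and at treatment day 5 from 0.42 to 0.10, moved the sum to 0.40 at treatment day 1 from 0.48, and reversed Lyz2 (-0.32) and the sum (-0.41) at vehicle day 5; the cause was not tested. Over the libraries left out in turn, the sum ranged from 0.41 to 0.55, -0.01 to 2.13 and -0.60 to 1.51 for treatment at days 1, 3 and 5, from -2.80 to -0.59 at vehicle day 3 and from -0.58 to 1.60 at vehicle day 5. At 0 to 11 reads in each vehicle library, depth limits the size of the Saa3 and Ambp differences.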
